A study of Bos taurus with 16 samples.

Results

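Liver slices treated with rosiglitazone, the PPARγ agonist, were compared directly with slices of the same cows treated with GW-501516, the PPARδ agonist. The comparison held 6 of the 16 libraries of the series, 1 per agonist from each of the cows 581, 576 and 567. It covered 18219 of the 28786 genes in the table, namely each gene that exceeded 4 counts in 1 library or more. Precision-cut liver slices (PCLS) are thin discs of living liver in which hepatocytes stay beside their endothelial cells, stellate cells and macrophages. The slices came from biopsies of primiparous Jersey cows taken after calving, and all were kept in a synthetic medium (William's E) for 18 h, with the vehicle DMSO at 0.8% in every well. Rosiglitazone was given at 100 µM and GW-501516 at 50 µM, so agonist and dose cannot be told apart. Control slices of the same cows, with DMSO alone, did not enter the comparison and their values are given as background without a test. The fourth cow, 574, was removed by the study for low RNA integrity and entered 1 alternative fit only.

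The PPARs are nuclear receptors that bind fatty acids and their derivatives, pair with a retinoid X receptor (RXR) and switch on genes of fatty acid uptake, oxidation, ketogenesis and storage. PPARα is the isotype best known in liver, PPARδ is found in most tissues, and PPARγ is best known in adipose tissue and in macrophages, where its ligands lower the expression of inflammatory genes. The comparison asks how the responses of 1 tissue to agonists of the δ and γ isotypes differ. Counts were scaled to CPM, the share of a library's counts on a common scale, using TMM factors, and a gene was called at an edgeR adjusted p under 0.2, the cut-off of the study. Fold changes are log2 of rosiglitazone over GW-501516, and the main fit held the cow as a block.

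The 6 libraries held 3675309 to 8215399 counts in genes. The GW-501516 library of cow 576 stood apart from the others. In it, 9993 genes were detected (14941 to 17461 in the other 5 libraries), the ribosomal RNA gene RN18S1 took 63.8% of the counts (16.4 to 37.5%), and 45.7% of the tested genes had no count (9.77 to 20.3%). Its correlation with the other libraries was 0.738 to 0.781, against 0.838 to 0.891 among the others. The median log2 fold change of all 18219 genes was 0.34 with all cows and 0.03 without this cow. It was 0.43 without cow 581 and 0.44 without cow 567. Results that rest on cow 576 are therefore given with and without it. The GW-501516 library of cow 581 differed from the others in another way. It had the most counts (8215399), the lowest share of RN18S1 (16.4%, against 33.1% or more) and the highest share of mitochondrially encoded genes (14.9%, against 3.72 to 9.59%). Its label alone among the 6 carries the mark -rd, whose meaning is not given. The labelled tissue was checked against its markers, and all 6 hepatocyte markers and all 4 endothelial markers were detected in each of the 6 libraries. CD163, CD5L, C1QB, VSIG4 and CD3E, markers of macrophages and T cells, had no count in the GW-501516 library of cow 576.

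Between the agonists, 82 of the 18219 genes were called (0.45% of those tested), 51 of them higher (0.28%) and 31 lower (0.17%) with rosiglitazone. At an adjusted p under 0.05 the number was 37 (0.203%), with 27 higher (0.148%) and 10 lower (0.0549%), and 675 genes (3.7%) had an unadjusted p under 0.05. Of the higher genes 48 were higher in all 3 cows and of the lower genes 27 were lower in all 3 cows, against 14.9% and 8.21% of all genes tested. The bile salt export pump ABCB11, the growth factor FGF1 and the lipoprotein APOB had the smallest p-values among the higher genes, and the scavenger receptor OLR1, the transcription factor KLF4 and the MHC class II chain BOLA-DRA were among the leading lower genes. All 51 higher genes were protein coding, and of the lower genes 27 were protein coding, 1 was a long non-coding RNA and 1 a ribosomal RNA in RefSeq. The libraries of the 2 groups did not overlap in CPM for 41 of the 51 higher and 21 of the 31 lower genes, against 9.56% of all genes tested. The calls were made on the same 6 libraries, so the agreement between cows and the lack of overlap follow in part from the selection. They are not separate evidence for the calls. The number of calls depended on how the spread was estimated. In this fit edgeR used a spread shared between genes, with no weight on a gene's own. With its newer estimate (legacy=FALSE) or with at least 10 counts in at least 3 libraries required of each gene, edgeR called 0 genes (704 and 388 genes at an unadjusted p under 0.05). DESeq2 called 82 and limma-voom 88.

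**Figure D1:**
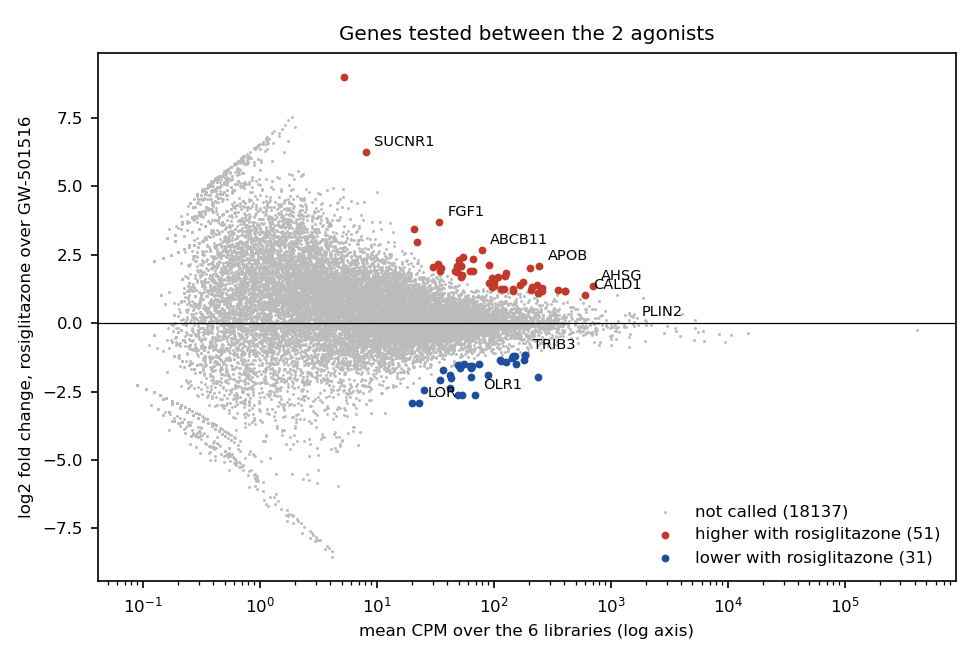
Log2 fold change (rosiglitazone over GW-501516) of each of the 18219 genes against its mean CPM over the 6 libraries (log axis). Red points are the 51 genes called higher and blue points the 31 called lower with rosiglitazone. Some genes that were not called (grey) have larger fold changes than most called genes.

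The set of calls changed with the cow left out. Without cow 581, 11 of the 51 higher and 24 of the 31 lower genes were lost, and without cow 576 28 higher and 5 lower genes were lost. Leaving out cow 567 lost 33 higher and 23 lower genes. Called without each cow in turn were 9 higher genes, among them ABCB11, APOB, CD276, FGF1, FHL2, KRT8 and PACSIN3, and 2 lower genes, LOC112444653 and LOC783920. Without cow 576 the number of calls was 231 (75 higher and 156 lower), without cow 581 it was 86 (69 and 17) and without cow 567 it was 27 (18 and 9). All 82 genes kept the direction of their fold change in each fit without a cow.

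**Figure D2:**
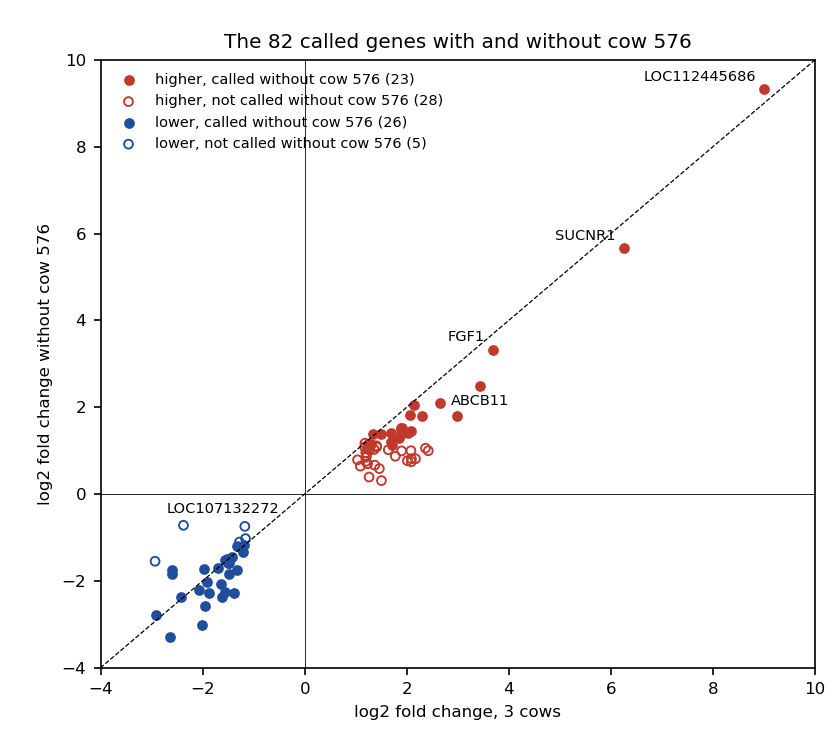
Log2 fold change of the 82 called genes with 3 cows (x axis) and without cow 576 (y axis), with filled points for genes still called without that cow. Of the higher genes (red) 23 were still called, most open red points lie below the dashed line of equal values, and of the lower genes (blue) 26 were still called.

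ABCB11 and APOB, which serve the export of bile salts and of lipoprotein from the hepatocyte, were higher with rosiglitazone in each of the 3 cows. ABCB11, the pump that moves bile salts from the hepatocyte into the canaliculus, had 64.7, 214 and 134 CPM with rosiglitazone in cows 581, 576 and 567, and 14.7, 14.6 and 32.2 CPM with GW-501516. Its lowest rosiglitazone value was above its highest GW-501516 value, and the controls held 23.9, 41.3 and 30.8 CPM, close to the GW-501516 slices. The log2 fold change was 2.66 ± 0.40 (SE, n = 3 cows, edgeR adjusted p = 8.68e-07). APOB, the structural protein of very low density lipoprotein, had 283, 433 and 431 CPM with rosiglitazone and 79.3, 39.9 and 206 CPM with GW-501516. Here the controls (248, 134 and 492 CPM) lay nearer the rosiglitazone slices, and the log2 fold change was 2.09 ± 0.34 (SE, edgeR adjusted p = 4.22e-06). Without cow 576 the values of APOB and ABCB11 were 1.45 (0.035) and 2.10 (2.1e-04). ABCB11 was the 1 member called of the 22 tested genes of bile acid transport and synthesis (median 0.65, against 0.34 for all genes), and APOB the 1 member called of 33 genes of fatty acid and triacylglycerol synthesis (median 0.63). Without cow 576 these medians were 0.19 and 0.19, without cow 581 1.26 and 1.00, and without cow 567 1.26 and 0.87. The medians of all genes tested in these fits were 0.03, 0.43 and 0.44. CYP8B1, the sterol 12α-hydroxylase of bile acid synthesis, had 34.5, 54.1 and 29.5 CPM against 12, 8.82 and 10.6 CPM, without overlap, but did not pass (1.86 ± 0.64, edgeR adjusted p = 0.47), and was called without cow 576 (1.5, 0.185).

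FGF1, a growth factor that is induced by PPARγ in mouse adipose tissue, had a larger fold change than ABCB11 and APOB. It had 28.7, 79.5 and 80.6 CPM with rosiglitazone, 2.44, 3.65 and 9.12 CPM with GW-501516 and 1.59, 7.26 and 14.9 CPM in the controls. The 3 rosiglitazone libraries were thus above all GW-501516 and control libraries, and the log2 fold change was 3.68 ± 0.58 (SE, edgeR adjusted p = 2.1e-06). Leaving out each cow in turn gave log2 fold changes of 3.33 to 3.95. SUCNR1, the receptor of succinate, had counts of 18, 131 and 106 with rosiglitazone and of 1, 0 and 2 with GW-501516 (6.26 ± 1.60, edgeR adjusted p = 0.046). Its call was lost without cow 581 (0.433) and without cow 567 (1.00), and its controls of 6.37, 2.51 and 0 CPM overlapped the rosiglitazone slices. LOC112445686, a protein-coding locus without a gene name, had counts of 72, 42 and 29 with rosiglitazone and none in the GW-501516 and control libraries. With the GW-501516 group set at a floor of 3 counts in all, the ratio was 58.4. The 95% interval of its fitted log2 fold change was 4.32 to 13.7. The calls of SUCNR1 and of LOC112445686 thus rested on few counts, and LOC112445686 was lost without cow 581 and without cow 567 (both 1.00). The ubiquitin-conjugating enzyme gene UBE2QL1 (3.44 ± 0.80, adjusted p = 0.013) and TNFSF18, the ligand of the T cell receptor GITR (2.98 ± 0.78, adjusted p = 0.06), were higher in 3 of 3 cows in edgeR, with 0 and 1 counts in the GW-501516 library of cow 576, and both were lost without cow 581 (0.256 and 0.25) and without cow 567. Without cow 576 their values were 2.49 and 1.81.

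KRT8, FHL2, CD276 and PACSIN3 were called higher with 3 cows and without each cow in turn. KRT8, the keratin of simple epithelia such as hepatocytes, had 212, 527 and 266 CPM with rosiglitazone and 89.9, 51.7 and 89 CPM with GW-501516. The groups did not overlap, the controls spanned 124 to 244 CPM, and the log2 fold change was 2.03 ± 0.34 (SE, edgeR adjusted p = 7.24e-06). FHL2, a LIM-domain coregulator found at focal adhesions and in the nucleus, had 83.3, 89.6 and 73.4 CPM against 20.1, 8.52 and 25.4 CPM (2.29 ± 0.46, edgeR adjusted p = 0.0011). CD276, a surface protein of the B7 family that acts on T cells, had 172, 247 and 171 CPM against 51.8, 31.6 and 93.9 CPM (1.84 ± 0.36, edgeR adjusted p = 7.6e-04), and PACSIN3, which bends membranes in endocytosis, had 84.6, 153 and 77.7 CPM against 17.6, 24 and 45.4 CPM (1.91 ± 0.42, edgeR adjusted p = 0.005). The log2 fold change of KRT8 was 1.41 without cow 576. IQGAP2, a scaffold of the actin cytoskeleton with high expression in liver, was lower with GW-501516 than in any control library (65.7, 47.5 and 42.2 CPM, against 179, 133 and 154 CPM in the controls and 144, 222 and 137 CPM with rosiglitazone). Its log2 fold change was 1.68 ± 0.36 (edgeR adjusted p = 0.0038), and the call was lost without cow 567 (0.505). The actin-binding caldesmon CALD1 (1.03), the non-muscle myosin MYH9 (1.24), the collagen receptor subunit ITGA2 (1.64) and the adhesion proteins NRCAM (1.49) and CDH17 (1.196) were also called higher, each in 3 of 3 cows, and each was lost when 1 or 2 of the cows were left out in turn. Keratin 18, the partner of KRT8 (KRT18, chosen after its values were seen), had 399.9, 664 and 402 CPM against 329, 316 and 219 CPM and did not pass (0.74 ± 0.31, edgeR adjusted p = 0.99).

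Of the 40 tested hepatocyte genes 3 were called, all higher with rosiglitazone. AHSG, the secreted glycoprotein fetuin-A, had 1005, 1464 and 599.6 CPM with rosiglitazone and 462, 359 and 314 CPM with GW-501516 (1.36 ± 0.31, edgeR adjusted p = 0.013). RBP4, the carrier of retinol in blood, had 286, 542 and 262 CPM against 198, 146 and 117 CPM (1.195 ± 0.32, edgeR adjusted p = 0.067). The third was PROX1, a transcription factor of hepatocyte and lymphatic identity, with 668, 532 and 423 CPM against 125, 233 and 444 CPM (1.18 ± 0.33, edgeR adjusted p = 0.086). PROX1 was not higher in cow 567, and its controls of 1716, 683 and 690 CPM were above both groups. All 3 calls were lost without cow 576 (adjusted p of 0.371, 0.587 and 0.285), and all without cow 567 apart from that of PROX1 (0.112), which was lost without cow 581 (1.00). The median of the list was 0.08, below the 0.34 of all genes tested, and ALB, the most abundant hepatocyte transcript of the list, did not pass (0.22 ± 0.31, edgeR adjusted p = 1.00). The summed CPM of the 6 hepatocyte markers (AHSG is 1 of them) was 3463 to 4510 with rosiglitazone and 2983 to 4012 with GW-501516. Of these markers only AHSG was higher with rosiglitazone in each cow. FGB was lower in each cow, and ALB, APOA1, TTR and SERPINA1 differed in direction between cows. In slices of whole tissue, fewer cells of a type and less RNA per cell cannot be told apart. Of the 31 tested acute phase and complement genes 1 was called.

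**Figure D3:**
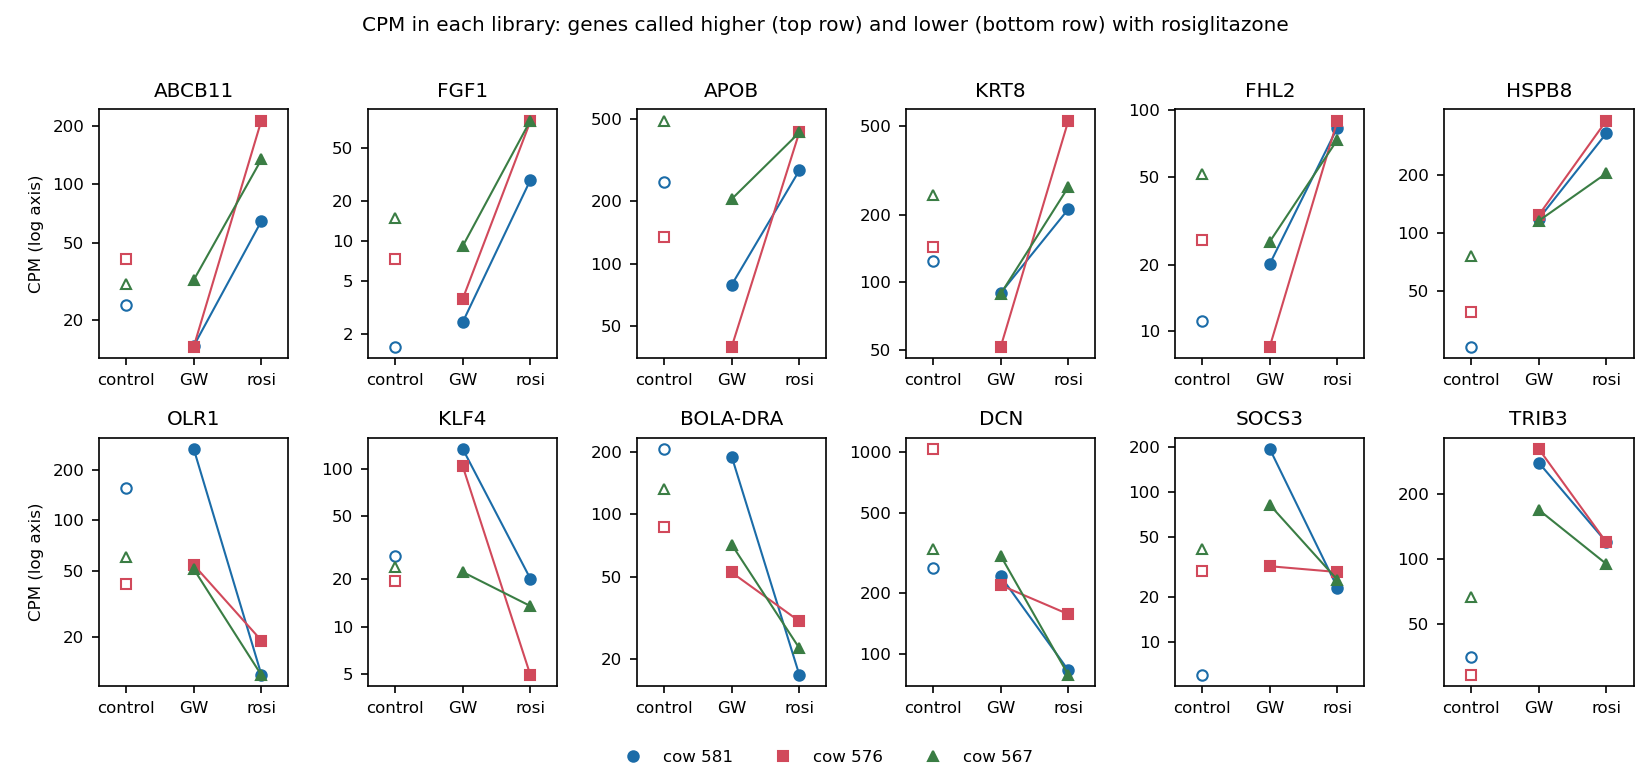
CPM in each library (log axis, its range set for each gene) of 6 genes called higher (top row) and 6 called lower (bottom row) with rosiglitazone. Open symbols are the control slices, and lines join the GW-501516 and rosiglitazone slices of 1 cow; in each panel all 3 lines run in the same direction.

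The well-known PPAR targets PLIN2, PDK4, CPT1A and ANGPTL4 were not called between the agonists. PLIN2, the coat protein of lipid droplets, had 1445, 1786 and 1537 CPM with rosiglitazone and 1464, 1620 and 1565 CPM with GW-501516, against 479, 764 and 761 CPM in the controls. Both agonists were thus above the control of each cow, and the log2 fold change between them was 0.03 with a 95% interval of -0.58 to 0.65. PDK4, the kinase that shuts pyruvate out of oxidation, had 308, 342 and 147 CPM with rosiglitazone and 442, 619 and 215 CPM with GW-501516, and was lower with rosiglitazone in 3 of 3 cows without passing the test (-0.64, interval -1.25 to -0.04, edgeR adjusted p = 1.00). CPT1A, which carries fatty acids into mitochondria, had a log2 fold change of -0.03 (interval -0.75 to 0.70), and ANGPTL4, a secreted inhibitor of lipoprotein lipase, of -0.22 (-0.91 to 0.46). ACADVL, the very-long-chain acyl-CoA dehydrogenase, was at 0.03 (-0.60 to 0.66). These intervals still hold differences of around 1 log2 unit for PDK4 and ANGPTL4, so similar responses were not shown. PLIN2, CPT1A and ANGPTL4 were named as known PPAR targets after their values were seen.

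Within fatty acid oxidation, HADHB was the 1 member called of 32 tested. HADHB and HADHA are the β and α subunits of the mitochondrial trifunctional protein. HADHB had 134, 171 and 178 CPM with rosiglitazone and 76.8, 55 and 74.2 CPM with GW-501516 (1.24 ± 0.35, edgeR adjusted p = 0.115), and HADHA had 144, 189 and 177 CPM against 96.1, 88.8 and 72.2 CPM (0.99 ± 0.34, edgeR adjusted p = 0.489). Neither overlapped between the groups, only HADHB passed, and its call was lost without cow 576 (0.318) and without cow 567 (1.00). For HADHB the controls of 9.15, 58.9 and 55.5 CPM lay below every rosiglitazone library. The median of the oxidation genes was 0.40 with 3 cows, -0.06 without cow 576, 0.67 without cow 581 and 0.54 without cow 567.

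No member was called among the 21 genes of fatty acid uptake, binding and activation, the 22 genes of lipid droplets and lipases, the 22 of cholesterol synthesis, the 15 of ketone bodies and PDKs, or the 23 cytochromes P450. Their medians were -0.03, 0.12, 0.60, 0.00 and 0.69, and without cow 576 they were -0.47, -0.14, 0.00, -0.05 and -0.04. Without cow 581 they were -0.04, 0.08, 0.99, 0.37 and 1.10, with 1 gene of lipid droplets and lipases called higher, and without cow 567 they were 0.25, 0.00, 0.89, 0.15 and 0.64, with 0 called. CD36, the fatty acid translocase, had 126, 232 and 164 CPM with rosiglitazone and 361, 331 and 302 CPM with GW-501516, and ACSL4, an acyl-CoA synthetase that favours arachidonic acid, had 73.9, 51.1 and 71 CPM against 141, 145 and 131 CPM. In both genes every rosiglitazone library was below every GW-501516 library, but neither passed (CD36 -0.97 ± 0.32, edgeR adjusted p = 0.352; ACSL4 -1.11 ± 0.36, 0.331). Without cow 576 CD36 was called lower (-1.20, 0.153) and SLC27A6, a fatty acid transport protein, higher (2.34, 0.119). Of the cytochromes P450, CYP2C87 (2.24, 0.092) and CYP8B1 were called higher without that cow. SLC27A6 and CYP2C87 were named after their values were seen. The other genes measured by RT-qPCR in the study did not pass in this comparison either. FABP1, the fatty acid binding protein of liver, was at 0.59 ± 0.31, LIPC, the hepatic lipase, at -0.56 ± 0.54, the coactivator PPARGC1A at 0.41 ± 0.47 and the repressor HES6 at 1.05 ± 1.46 (all edgeR adjusted p = 1.00). The receptors themselves were low, with 12.3 to 23.2 CPM for PPARA, 4.83 to 19.6 CPM for PPARD and 0 to 4.47 CPM for PPARG, and none of the 18 receptors, RXR partners and coregulators was called (median 0.05).

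**Figure D4:**
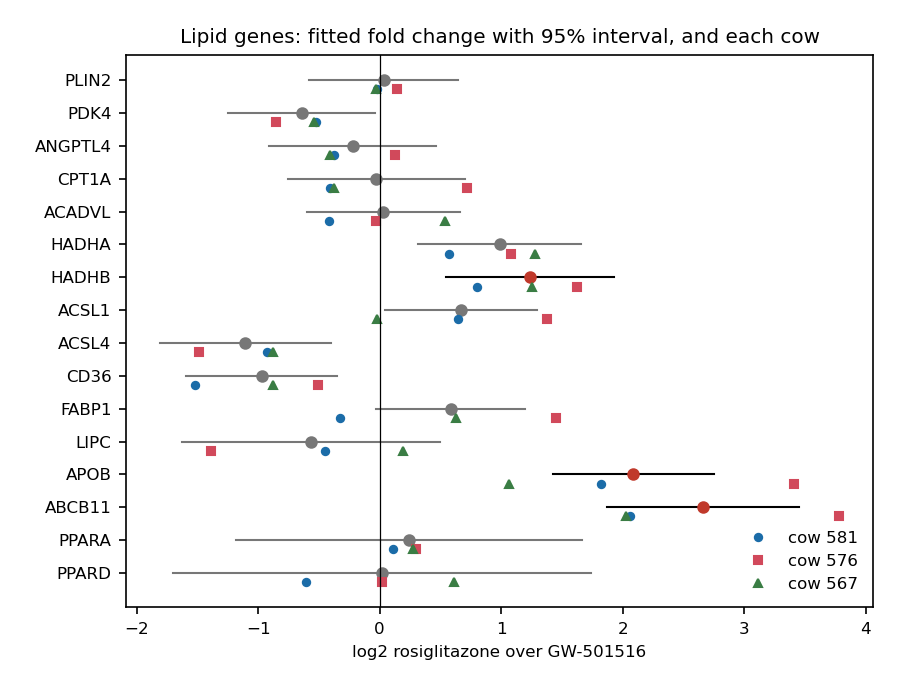
Fitted log2 fold change (rosiglitazone over GW-501516) with its 95% interval for 16 genes of lipid metabolism, PPARA and PPARD included, with red points for called genes. The small symbols under each line give the difference of log2(CPM + 1) in each cow; APOB, ABCB11 and HADHB lie to the right of 0, and PLIN2, CPT1A and ACADVL lie near 0.

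OLR1 was among the lower genes with the smallest p-values. It codes for the receptor of oxidized low density lipoprotein on endothelial cells and macrophages, and had 12, 19.2 and 11.9 CPM with rosiglitazone, 266, 54.1 and 51.1 CPM with GW-501516 and 156, 41.6 and 60.4 CPM in the controls. Every rosiglitazone library was below every other library, and the log2 fold change was -2.64 ± 0.44 (SE, edgeR adjusted p = 5.95e-06). The call was lost without cow 581 (-1.79, 0.901) and held without cow 576 (-3.29, 1.32e-09). KLF4, a transcription factor of epithelial and endothelial cells, had 20.1, 4.94 and 13.5 CPM against 133, 103 and 22.2 CPM (-2.61 ± 0.50, edgeR adjusted p = 4.4e-04). For KLF4 the controls of 27.9, 19.5 and 24 CPM were above the rosiglitazone slice of each cow. They were below the GW-501516 slices of cows 581 and 576 and close to that of cow 567, the cow in which the agonists differed least. The value of KLF4 was -1.75 without cow 576, and without cow 581 its call was lost (0.238). SOCS3, the feedback inhibitor of cytokine signaling, had 23, 29.2 and 25.9 CPM against 195, 31.9 and 82.2 CPM (-1.63 ± 0.43, edgeR adjusted p = 0.063). In cow 576 both SOCS3 values were close, without that cow the value was -2.38, and the call was lost without cow 581 and without cow 567 (both 1.00). TRIB3, a pseudokinase induced by the stress factor ATF4, had 119, 119 and 94.6 CPM against 278, 322 and 168 CPM (-1.16 ± 0.32, edgeR adjusted p = 0.093), with controls of 35, 29 and 66.6 CPM below all 6 libraries; it was the 1 member called of 25 genes of the unfolded protein response (median -0.20), and was lost without each cow in turn (0.277 to 0.79).

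Of the 13 MHC class II genes tested, BOLA-DRA and BOLA-DRB3, which code for the chains of the antigen-presenting DR molecule, were called, both lower with rosiglitazone. The median of the list was -0.18. BOLA-DRA had 16.7, 30.4 and 22.5 CPM with rosiglitazone and 190, 52.3 and 71.3 CPM with GW-501516, each below the control of that cow (207, 86.5 and 132 CPM), with a log2 fold change of -1.96 (SE 0.43, edgeR adjusted p = 0.0063). BOLA-DRB3 had 32.4, 42.7 and 72.8 CPM against 338, 33.8 and 167 CPM, and was not lower in cow 576 (-1.39 ± 0.39, edgeR adjusted p = 0.097). Without cow 576 the values of BOLA-DRA and BOLA-DRB3 were -2.58 and -2.28, and both calls were lost without cow 581 and without cow 567 (0.275 to 1.00). Reads of the MHC genes are uncertain, since near-identical copies can share them. The list median was -1.75 and -0.61 in cows 581 and 567 and 0.93 in cow 576, so the sign of the list turned with the cow. Without cow 576, 4 class II genes were called lower (median -1.69), whereas without cow 581 (median 1.71) and without cow 567 (0.22) 0 genes were called. CD74, the invariant chain, did not pass with 3 cows (-1.21 ± 0.44, edgeR adjusted p = 0.61) and was called without cow 576 (-1.69, 0.011). Among 17 class I, peptide loading and immunoproteasome genes, PSMB9, a catalytic subunit of the immunoproteasome, was called, with 9.92, 19.8 and 10.8 CPM against 56.6, 70.6 and 40.2 CPM (-2.08 ± 0.53, edgeR adjusted p = 0.049). The call of PSMB9 was lost without cow 581 (0.669) and without cow 567 (0.92), and of the list 7 genes were called lower without cow 576 and 0 without cow 581 or cow 567.

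Beside these results, the difference in the macrophage markers depended on the cow. The summed CPM of 7 macrophage markers was 232, 46.9 and 150.4 with GW-501516 in cows 581, 576 and 567 and 97.3, 161 and 163 with rosiglitazone, so the difference ran in opposite directions in cows 581 and 576. In the controls the sum was 787, 279 and 341 CPM, above every library of both agonists. None of the 25 macrophage genes was called (median 0.03), against 4 called lower without cow 576 (median -0.91) and 0 without cow 581 (median 1.17) or cow 567 (0.45). The 5 lymphocyte markers summed to 19, 12.2 and 19.5 CPM with GW-501516 and 12.7, 15.5 and 11.2 CPM with rosiglitazone, and of 27 lymphocyte genes none was called with 3 cows and 1 was called lower without cow 576 (medians -0.49 and -1.15; 0.31 without cow 581 and -0.29 without cow 567, with 0 called). The part of these cells in the MHC result was not tested.

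Chemokines were among the lower genes, with 3 of 34 chemokine and interleukin genes called. CXCL2, a neutrophil chemokine, had 95.5, 21.3 and 66.9 CPM with rosiglitazone and 321, 65.1 and 104.4 CPM with GW-501516 (-1.34 ± 0.36, edgeR adjusted p = 0.067). CXCL3, a neighbour of the same family, had 14.6, 7.64 and 12.4 CPM against 124, 5.47 and 94.8 CPM (-2.01 ± 0.54, edgeR adjusted p = 0.071), and was not lower in cow 576, without which it had one of the smallest p-values (-3.01, 7.4e-09). CXCL16, which also acts as a scavenger receptor, had 100.5, 69.8 and 95.3 CPM against 348, 165 and 138 CPM (-1.19 ± 0.34, edgeR adjusted p = 0.11). The CXCL1 homologue GRO1, which is not in the list, was lower in 3 of 3 cows (-1.56 ± 0.41, edgeR adjusted p = 0.06). These 4 calls were lost without cow 581 (all 1.00) and without cow 567 (0.284 to 1.00). Because GRO1, CXCL2 and CXCL3 are similar in sequence, their counts may be shared. The list median was -0.91 with 3 cows and -1.38 without cow 576, when 7 of its genes were called lower and 1 higher; without cow 581 and without cow 567 it was -0.59 and -0.81, with 0 called. The immune checkpoint ligand CD274 (-1.57 ± 0.43, edgeR adjusted p = 0.086) and CD83, a marker of mature dendritic cells (-1.53 ± 0.45, edgeR adjusted p = 0.137), were called lower in 3 of 3 cows (CD274 at -2.25 without cow 576), and both were lost without cow 581 and without cow 567 (0.66 to 1.00). In cow 576 the values of CD274 were close, with 28.5 CPM with rosiglitazone and 30.7 CPM with GW-501516. None of the 32 interferon-stimulated genes was called with 3 cows (median -0.88), and 6 were called lower without cow 576 (median -1.24) against 0 without cow 581 (-0.11) or cow 567 (-0.50). RSAD2, an antiviral enzyme and the strongest of these without cow 576, had 0.783, 3.75 and 0.676 CPM against 29.6, 2.43 and 15.9 CPM (-3.29 ± 1.58, edgeR adjusted p = 1.00 with 3 cows and 9.3e-06 without cow 576).

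**Figure D5:**
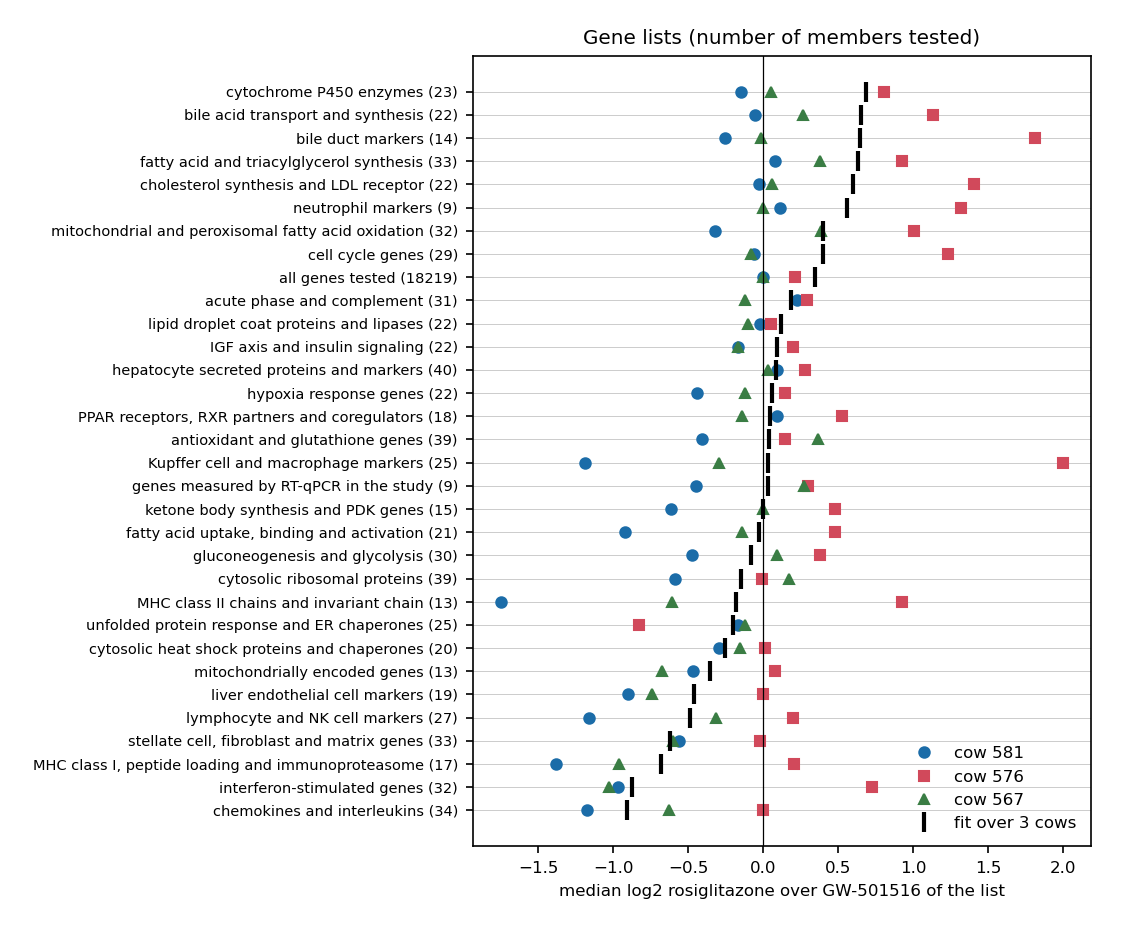
Median log2 ratio of rosiglitazone over GW-501516 in each gene list, for each cow (coloured symbols, differences of log2(CPM + 1)) and for the fit over 3 cows (black bars), with the number of members tested in brackets. For macrophage, MHC class II and interferon-stimulated genes cow 576 lies right of 0 and cows 581 and 567 lie left of it.

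DCN, COL3A1 and CDH5, genes of the matrix and of endothelium, were called lower with rosiglitazone. DCN, the matrix proteoglycan decorin, had 82.5, 157 and 78.2 CPM with rosiglitazone, 242, 218 and 306 CPM with GW-501516 and 265, 1039 and 329 CPM in the controls (-1.33 ± 0.33, edgeR adjusted p = 0.032). COL3A1, a fibrillar collagen, had 13.6, 24.9 and 15.1 CPM against 91.3, 54.4 and 52.4 CPM (-1.88 ± 0.49, edgeR adjusted p = 0.06). Both were lower in 3 of 3 cows without overlap, and they were the 2 members called of 33 stellate cell and matrix genes (median -0.62). Without cow 567 both calls were lost (1.00), and that of COL3A1 also without cow 581 (1.00). COL1A1 and COL1A2, the chains of type I collagen, were at 11.2 CPM or less in the 6 libraries. CDH5, the cadherin of endothelial junctions, had 13.3, 33.4 and 23.2 CPM against 132, 62 and 43.1 CPM (-1.65 ± 0.46, edgeR adjusted p = 0.093). It was the 1 member called of 19 endothelial genes (median -0.46), and was lost without cow 581 (1.00) and without cow 567 (0.49). The summed CPM of the 4 endothelial markers, CDH5 included, was 101, 145 and 187 with rosiglitazone and 214, 354 and 311 with GW-501516, and that of the 5 stellate cell and fibroblast markers, DCN and COL3A1 included, was 109.5, 212 and 109.1 against 375, 300.3 and 388. Both sums were lower with rosiglitazone in each cow, but they hold the called genes themselves. DCN and COL3A1 made up most of the stellate cell and fibroblast sum in each library. Beside them, ACTA2 was lower and COL1A2 higher with rosiglitazone in each cow. Of the endothelial markers, PECAM1 was higher with rosiglitazone in cow 581 (68.1 against 47.9 CPM) and lower in cows 576 and 567. The part of cell numbers in these results was not tested. WWTR1, a coactivator of the Hippo pathway, was lower in 3 of 3 cows as well (-1.48 ± 0.42, edgeR adjusted p = 0.115), and was called without cow 576 but not without cow 581 or cow 567 (both 1.00).

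HSPB8, GCLC and GSTM3 were called higher and HSPA6 lower with rosiglitazone. HSPB8, a small heat shock protein, had 330.5, 385 and 205 CPM with rosiglitazone, 119, 124 and 116 CPM with GW-501516 and 25.9, 39.1 and 76.3 CPM in the controls, so that both agonists were above the controls (1.31 ± 0.32, edgeR adjusted p = 0.031). It was the 1 member called of 20 cytosolic heat shock genes in the list (median -0.26). HSPA6, a stress-inducible HSP70 outside that list, was lower with rosiglitazone, with 78.6, 26.2 and 78.2 CPM against 388, 70 and 118 CPM (-1.44 ± 0.36, edgeR adjusted p = 0.032), and was lost without cow 581 (1.00). GCLC, the catalytic subunit of the rate-limiting enzyme of glutathione synthesis, had 234, 293 and 204 CPM against 105, 72.7 and 97.6 CPM (1.41 ± 0.33, edgeR adjusted p = 0.016). The glutathione transferase GSTM3 was higher too (1.90 ± 0.54, edgeR adjusted p = 0.117), and these were the 2 members called of 39 antioxidant genes (median 0.04). GCLC was lost without cow 576 (0.22) and without cow 567 (0.457), HSPB8 was lost only without cow 567 (0.418), and GSTM3 only without that cow (1.00). PFKFB3, which drives glycolysis, was the 1 member called both of 30 genes of gluconeogenesis and glycolysis (median -0.08) and of 22 hypoxia genes (median 0.06), at 1.09 ± 0.32 (edgeR adjusted p = 0.178), and was lost without cow 576 (0.917) and without cow 567 (1.00). Outside the lists, BCL2L1 and CASP8 were called higher as well, BCL2L1, an inhibitor of apoptosis, at 1.88 ± 0.46 (edgeR adjusted p = 0.028) and CASP8, an initiator caspase, at 1.27 ± 0.32 (edgeR adjusted p = 0.033), each in 3 of 3 cows. BCL2L1 was lost without cow 581 (0.238), CASP8 without cow 576 (0.327), and both without cow 567.

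Some calls rested on the GW-501516 library of cow 576. Of the 51 higher genes, 11 had 5 counts or fewer in that library. ST6GAL1, the sialyltransferase of secreted glycoproteins, had 1 count there against 389 and 225 in the other GW-501516 libraries (2.09 ± 0.51, edgeR adjusted p = 0.029; 0.74 and 0.811 without cow 576). The same held for CRYM, HES4, CSNK1E and ERC1, which had 4, 0, 0 and 2 counts in that library and adjusted p of 0.414, 0.695, 0.806 and 0.499 without the cow. In the other direction, the long non-coding RNA LOC107132272, named after its values were seen, had 684 counts in that library and 286 and 9 in the other GW-501516 libraries, and its log2 fold change of -2.38 was -0.72 without cow 576. In cows 581, 576 and 567 the median log2(CPM + 1) ratio of the 51 higher genes stood at 1.23, 2.83 and 1.06, and that of the 31 lower genes stood at -2.15, -1.45 and -1.42.

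Of the other leading lower genes, LOC112444653, a ribosomal RNA locus, had 144, 81.3 and 70.7 CPM with rosiglitazone and 428, 453 and 264 CPM with GW-501516 (-1.98 ± 0.33, edgeR adjusted p = 5.95e-06). LOC783920, a protein-coding locus without a gene name, had 29.8, 44.2 and 39 CPM against 178, 139.9 and 110.3 CPM, with controls of 159, 124 and 169 CPM (-1.91 ± 0.38, edgeR adjusted p = 7.7e-04). Both were lower without overlap in 3 of 3 cows. The core histone gene HIST1H2AC was lower in all 3 cows (-1.51 ± 0.34, edgeR adjusted p = 0.0072), and was lost without cow 567 (0.217). LOR, LOC100337457, LOC512486 and C1H21orf91 completed the 15 lower genes of largest fold change (-2.94, -2.92, -2.43 and -1.71), and CDKAL1, a tRNA-modifying enzyme, was among the 15 higher ones (2.06). Without cow 576 LOR was at -1.55 and lost its call (0.532), with 295 and 5 counts in the GW-501516 and rosiglitazone libraries of that cow. LOC100337457, LOC512486, C1H21orf91 and CDKAL1 were called without cow 576 and lost without cow 581 and without cow 567 (0.474 to 1.00). LOR and LOC100337457 had at most 9.4 CPM with rosiglitazone and 7.15 to 89.7 CPM with GW-501516.

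The control slices lay on different sides of these genes. With all 12 libraries of the 3 cows scaled together, which raised the CPM of the 6 libraries by 3.52 to 8.5%, all rosiglitazone libraries were above all control libraries for 29 of the 51 higher genes, and all GW-501516 libraries were below them for 9. Of the 31 lower genes, all rosiglitazone libraries were below all controls for 16 and all GW-501516 libraries were above them for 9. ABCB11 was of the first kind and IQGAP2 of the second, OLR1 of the third and TRIB3 of the last. Of the 82 called genes, 22 belonged to the 31 gene lists, which held 724 tested genes. This was 3.04% of the listed genes, against 0.45% of all genes tested. The lists were chosen with earlier results of these data known, so the difference in shares is not a finding. The lists with no call not given above were those of neutrophils (9 genes tested), bile duct (14), cell cycle (29), ribosomal proteins (39) and mitochondrially encoded genes (13), with medians of 0.56, 0.65, 0.40, -0.15 and -0.35. SOCS3 was the 1 member called of 22 genes of the IGF axis and insulin signaling.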

How the data were processed

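QuantSeq 3' libraries of 18 h liver slices were trimmed by the authors with Trimmomatic 0.39 and mapped with STAR 2.7.1 (build ARS-UCD1.2). Whole-number counts per gene, without normalization, were deposited. The table carries STAR's name in its headers, whereas the methods name StringTie 2.0; neither gives the strand setting, so overlapping and antisense genes are uncertain. Tallies of reads outside genes (4 rows) were left out, and 26 gene names that a spreadsheet had turned into dates were tested but not named. Biotypes come from RefSeq (ARS-UCD2.0), which matched 16658 of the 18219 genes tested.

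The 6 libraries (3675309 to 8215399 counts) were normalized by TMM and fitted with edgeR 4.0.16 (R 4.3.3, glmQLFit with legacy=TRUE, glmQLFTest). The cow was a block, since both slices of a pair came from the same animal. Same-cow deviations correlated at 0.002, 0.124 and 0.282, and those of different cows at -0.283 to 0.107. P-values were adjusted by Benjamini-Hochberg over all genes tested. Standard errors are the log2 fold change divided by the root of F, and 95% intervals are 1.96 standard errors to each side. Control CPM were scaled with 12 libraries. With 3 cows per group, p-values and standard errors rest on the spread between these pairs pooled over genes (prior df infinite). A gene's own spread between cows had no weight in the main fit, so genes whose cows disagreed could still be called.

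Named genes were the 15 with the largest fold change in each direction among those called (mean count 20 or more, all 3 cows agreeing in direction), members of the lists with the smallest p, and the genes measured by RT-qPCR; others named were chosen after their values were seen. The members and the 31 lists were chosen with earlier results of these data known, so they are described by counts and medians. Alternatives used DESeq2 1.42.0, limma-voom (limma 3.58.1), other size factors, filters, samples and left-out cows. The analysis was tested on simulated data. Some genes that met these rules are not reported here.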

Additional observations from a re-analysis of the deposited data

How the results depend on the processing

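The number of genes called depended on the block, on the samples that set the spread and on cow 576. Pairing the slices by cow gave 82 calls (51 higher, 31 lower), and with no replicate block the same 6 libraries gave 14 (7 and 7), all among the 82. The 12 libraries of the 3 cows gave 45 calls (26 and 19) with the replicate block and 7 (3 and 4) without it, and 8 libraries with cow 574 added gave 16 (8 and 8). The calls were 0 in each direction with the stricter filter and with legacy=FALSE, where edgeR gave weight to a gene's own spread (smallest adjusted p of 0.759 and 0.732). DESeq2 called 82 (52 and 30, of which 37 and 23 were among the main calls; 7065 genes had no adjusted p), other size factors 84, leaving out RN18S1 83 and no filter 77. Fits chosen after seeing the data were limma-voom with 88 calls (36 and 52) and the 12 libraries without the GW-501516 library of cow 576 with 173 (39 and 134). Leaving out each cow in turn gave 27 to 231 calls, 18 to 75 of them higher and 9 to 156 lower. The share of calls that were higher was 62.2% in the main fit, 40.9% with limma-voom, 32.5% without cow 576, 80.2% without cow 581 and 66.7% without cow 567. The cause of these changes was not tested.

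No called gene changed its direction in any alternative. Among genes that were not called, the direction changed for PPARD with no replicate block (-0.13), with 12 libraries (-0.089, and -0.13 with no block), with legacy=FALSE (-0.043), limma-voom (-0.16) and 12 libraries without the GW-501516 library of cow 576 (-0.25), and leaving out a cow gave -0.35 to 0.36. HES6 turned with no replicate block (-0.23 and, with 12 libraries, -0.19) and without the GW-501516 library of cow 576 (-0.47; leaving out a cow gave -0.051 to 2.64), as did LIPC in the last fit (0.18). ACADVL turned with 12 libraries (-0.033) and with cow 574 (-0.035; leaving out a cow gave -0.26 to 0.26), CPT1A with no replicate block (0.033 with 6 and with 12 libraries; leaving out a cow -0.40 to 0.17), and ALB (-0.084), FABP1 (-0.12) and PLIN2 (-0.12; leaving out a cow -0.025 to 0.057) with cow 574. Of 465 list medians recomputed, 437 moved by less than the SD between cows. That SD came from the same 3 cows and was wide where cow 576 differed (1.64 for the macrophage genes). The count therefore does not show that the medians were stable. Counts below about 20 per library limit genes such as PPARG and SUCNR1, and the 9993 genes detected in the GW-501516 library of cow 576 limit every gene without a count there.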
